A study of Mus musculus with 15 samples.

Results

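Trbv5 is the mouse T cell receptor (TCR) β variable gene whose protein segment is called V beta 1. It is listed as TCRBV05-01 in the immunoSEQ tables. The gene was chosen by a measured value, since among 20 V genes its share of distinct productive TCRs differed most between the first tumor of a mouse and its tumor-draining lymph node (TdLN), being higher in the tumor. Its members were all rearrangements assigned to it, 1799 of 29992, of which 1046 were productive and 753 non-productive. Every one carried the same allele call and none was tied with another V gene.

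The 15 samples came from 5 untreated female C57BL/6 wild-type mice, bought at 6 weeks of age. Each mouse carried B16F10GP tumors, a mouse melanoma line expressing the glycoprotein of lymphocytic choriomeningitis virus, on the right flank (tumor 1) and, implanted later, on the left flank (tumor 2). CD8+ PD-1+ CD44+ T cells, which have met antigen, were sorted from the TdLN, tumor 1 and tumor 2 of each mouse, and the TCR β locus was sequenced from their genomic DNA by immunoSEQ. All mice were controls, so no treatment was compared. By the study's methods the TdLN came from the side of tumor 1. No marker of the sorted cells could be checked in these tables.

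A TCR β gene is assembled in the thymus when recombination joins a V, a D and a J segment, trimming their ends and adding untemplated (N) bases. The joined stretch is the CDR3, the part of the receptor that touches peptide most closely, while the V segment also supplies the loops that touch the MHC molecule. A rearrangement out of frame or with a stop codon is non-productive. It makes no protein and is carried along by a cell whose other allele is productive, so its V gene use is set mainly by recombination and its abundance by the fate of its cell.

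Trbv5 lies on the plus strand at chr6:41062332-41062803 (GRCm38, the build the submitters call mm10), with a leader exon at chr6:41062332-41062407 and the V exon at chr6:41062512-41062803 (GENCODE M21). The 3′ end of the V exon, at chr6:41062757-41062803, is shown because each rearrangement keeps most of it. Its capitals mark a run of 5 T, the last of which is the first base of the CDR3. The 39 bases that follow, at chr6:41062804-41062842, are cut away at recombination. Their capitals mark the 7 and 9 bases that take the places of the heptamer and nonamer of a recombination signal, 23 bases apart.
germline 3′ end: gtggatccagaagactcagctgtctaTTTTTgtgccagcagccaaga
bases after it: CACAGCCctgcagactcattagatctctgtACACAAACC

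The stretch that the tables assign to the V gene was found letter for letter in germline Trbv5 for 1704 of the 1799 rearrangements, or 94.7%. All 543 of these with no V base deleted ended at chr6:41062803, the last base of the exon. The 5 productive Trbv5 TCRs with most templates in tumor 1, 1 per mouse, are shown next because much of the Trbv5 template count rests on them. A template is 1 copy of the rearranged gene, as estimated by the assay. Each sequence is the 87-base window of the assay, and capitals mark the bases between the V and the J part.
mouse 1, Trbj2-7: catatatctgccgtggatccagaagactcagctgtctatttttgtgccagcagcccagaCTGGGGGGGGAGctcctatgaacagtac
mouse 2, Trbj2-3: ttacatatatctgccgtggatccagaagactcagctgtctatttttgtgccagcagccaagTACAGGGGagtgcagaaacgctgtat
mouse 3, Trbj2-7: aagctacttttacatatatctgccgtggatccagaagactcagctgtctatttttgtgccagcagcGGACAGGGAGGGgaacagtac
mouse 4, Trbj2-7: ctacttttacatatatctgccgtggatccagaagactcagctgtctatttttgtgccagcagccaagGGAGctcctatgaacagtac
mouse 5, Trbj1-4: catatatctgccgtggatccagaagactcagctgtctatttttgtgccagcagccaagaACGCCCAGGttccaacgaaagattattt

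In these 5 TCRs the V part kept 12 to 17 of the 17 germline bases from the CDR3 start. The TCR of mouse 1 differed from the germline by A14C, counted from 1 at the first CDR3 base, and the others by no base. That of mouse 4 had no assigned D gene, and 4 bases lay between its V and J parts.

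Depth differed between tissues. Productive templates ranged from 3254 to 9105 in the TdLN and from 3601 to 6137 in tumor 1, but from 238 to 3975 in tumor 2, where mouse 4 gave the 238. Distinct productive TCRs numbered 1290 to 5722 in the TdLN and 183 to 366 in tumor 1. Library names were written in capitals for mice 1 to 3 and in mixed case for mice 4 and 5. Whether that marks 2 batches is not stated, so values are also given within each set. All intervals on shares are 95% Wilson intervals and cover counting error only.

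The Trbv5 TCRs also showed that the tumor 2 libraries of mice 1 to 3 stood apart. Of 25 Trbv5 TCRs in tumor 1 of mouse 1, 14 were found in the TdLN of that mouse and at most 2 in that of any other. The library labelled tumor 2 of mouse 1, in contrast, shared 8 of its 38 with its own TdLN, 12 with the TdLN of mouse 2, and 19 with tumor 2 of mouse 2. Tumor 2 of mouse 3 shared 0 of 17 with its own TdLN and 6 with tumor 2 of mouse 1. TCRs also found in another mouse made up 63.2%, 80.8% and 47.1% of the Trbv5 TCRs in tumor 2 of mice 1, 2 and 3. In tumor 1 of mouse 2 the same share was 56%, and in the other 4 tumor 1 samples it was 5% to 28%. The shares of tumor 2 are therefore also given without such rearrangements, while the sizes of single TCRs are given with them.

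Trbv5 formed a nearly constant share of the TdLN repertoire and, on average, a higher and more variable share of both tumors. The tumor shares rested on fewer TCRs. Productive Trbv5 TCRs numbered 18 to 27 per sample in tumor 1 and 4 to 38 in tumor 2, against 67 to 311 in the TdLN. The part of counting error in the wider spread was not tested. In the TdLN of mice 1 to 5 it made up 5.12%, 5.28%, 5.19%, 5.44% and 5.02% of distinct productive TCRs. In tumor 1 the shares were 10.2%, 8.56%, 9.89%, 5.46% and 8.04%. Every tumor 1 sample lay above every TdLN sample, but that of mouse 4 exceeded the TdLN of its mouse by less than its counting error (interval 3.57% to 8.29%).

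The mean share was 8.43% ± 1.89 in tumor 1 against 5.21% ± 0.158 in the TdLN (SD, n = 5 each), a difference of 3.22 percentage points with an SD of 1.99 within mice. As this is the value the gene was chosen by, it is a description and was given no test. The next V gene in that order, Trbv19, differed by 2.81 points. The Trbv5 difference was 4.35 in mice 1 to 3 and 1.52 in mice 4 and 5. It was 2.64 when rearrangements found in another mouse were removed.

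In tumor 2 the Trbv5 shares were 11.5%, 7.18%, 8.76%, 8% and 4.7% of distinct productive TCRs, with a mean of 8.03% ± 2.46 (SD, n = 5). The difference from the TdLN was 2.82 points. Mice 1 to 4 were above their TdLN and mouse 5 was below it. The share of mouse 4 rested on 4 Trbv5 TCRs of 50, with an interval of 3.16% to 18.8%. Removing rearrangements found in another mouse left a difference of 2.49, and leaving out mouse 4 left 2.88. This comparison uses the same TdLN samples as the one before, and it is likewise a description.

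**Figure D1:**
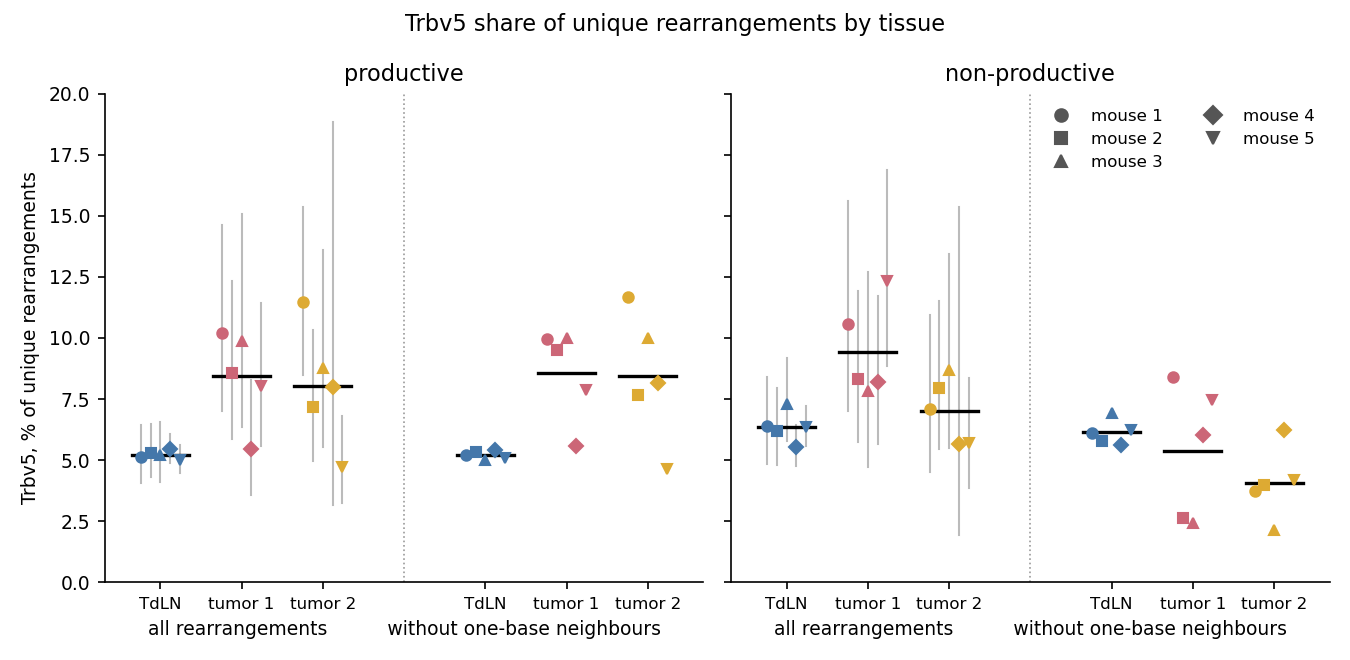
Share of Trbv5 (%, y axis) among distinct productive (left) and non-productive (right) rearrangements in the TdLN, tumor 1 and tumor 2, with 1 symbol per mouse, black bars for means, and grey lines for 95% Wilson intervals. The right side of each panel leaves out one-base neighbours, rearrangements 1 base away from a larger one of the same sample: the productive tumor 1 mean stays at 8.58% against 5.21% in the TdLN, while the non-productive one goes from 9.44% to 5.39%.

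Among all V genes, Trbv5 ranked 10 by mean productive share in the TdLN, but 3 in tumor 1 and 2 in tumor 2. The V gene whose productive share followed it most closely over the 15 samples was Trbv19, with a Spearman rho of 0.59. Trbv4 came next at 0.46 and Trbv17 at 0.29. Trbv19 made up 8.09% ± 1.52 of the TdLN, with 10.9% ± 1.33 for tumor 1 and 14.7% ± 4.84 for tumor 2 (SD, n = 5 each). These coefficients describe shares of the same libraries, which sum to a fixed total.

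By templates the order of the tissues differed. Trbv5 templates made up 8.04%, 8.12%, 9.62%, 5.83% and 5.41% of productive templates in the TdLN of mice 1 to 5. In tumor 1 the shares were 10.8%, 13.3%, 4.18%, 1.77% and 12.9%. The tumor 1 values surrounded those of the TdLN, with 3 mice higher and 2 lower.

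The mean template share was 8.59% ± 5.29 in tumor 1 and 7.4% ± 1.75 in the TdLN (SD, n = 5 each), a difference of 1.19 points with an SD of 5.7 within mice. Without mouse 5 it turned to -0.400. In tumor 2 the template shares were 9.08%, 8.06%, 4.28%, 1.68% and 3.87%, on average 2.01 points below the TdLN. Without rearrangements found in another mouse the tumor 2 template shares were 16%, 2.26%, 18.1%, 7.14% and 1.81%, and the TdLN shares 4.67%, 5.45%, 9.99%, 5.8% and 5.01%. Those tumor 2 shares rested on only 14, 5, 9, 4 and 24 Trbv5 TCRs in mice 1 to 5. Mice 1, 3 and 4 lay above their TdLN, and mice 2 and 5 below it. The tumor 2 mean then lay 2.87 points above the TdLN. The direction of the mean template difference thus turned with these rearrangements, but on few TCRs and not in every mouse.

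**Figure D2:**
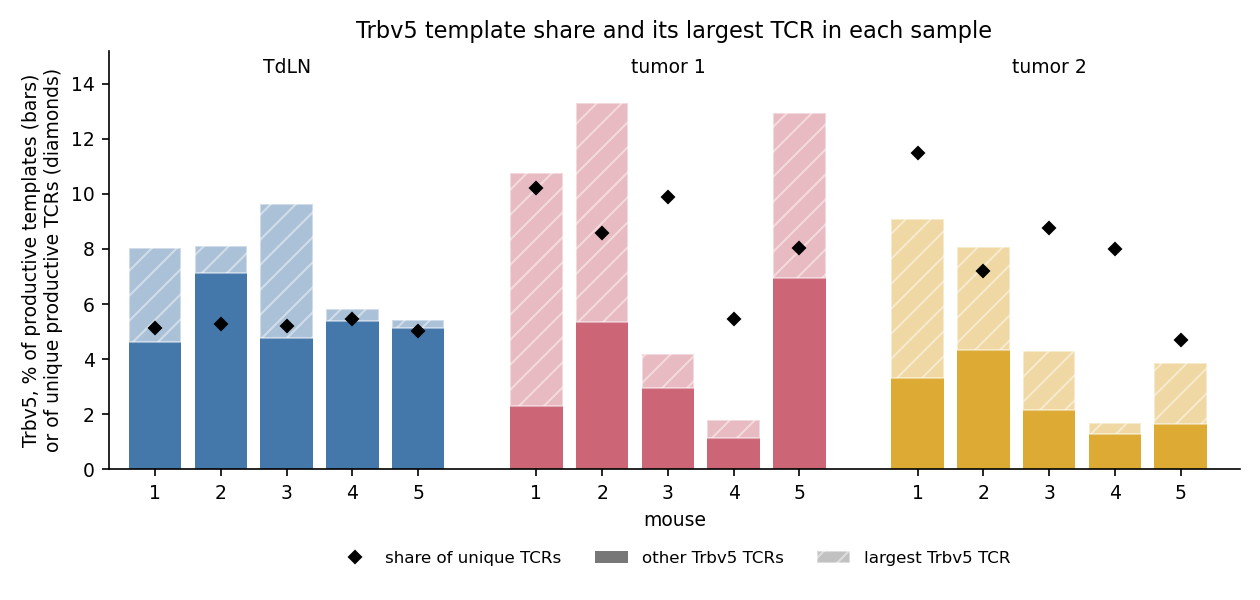
Trbv5 share of productive templates (bars, %) in each of the 15 samples, split into the largest Trbv5 TCR of the sample (hatched) and all others (solid), with its share of distinct productive TCRs as diamonds. In tumor 1 the bars run from 1.77% to 13.3% and the diamonds from 5.46% to 10.2%.

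A single TCR held 78.8%, 59.9%, 29.5%, 35.1% and 46.4% of all Trbv5 templates in tumor 1 of mice 1 to 5. In the TdLN the largest held 42.4%, 12.1%, 50.4%, 7.66% and 5.29%. Without the largest Trbv5 TCR, the tumor 1 template shares were 2.49%, 5.79%, 2.98%, 1.16% and 7.39%, and the TdLN shares without theirs were 4.8%, 7.2%, 5.02%, 5.41% and 5.14%. The mean difference was then -1.55 points, with 1 of 5 mice higher in tumor 1. Only the largest Trbv5 TCR was left out, while other V genes kept theirs. This lowers the Trbv5 share most where that TCR is large, so part of the drop is built into the step.

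The Trbj2-7 TCR of mouse 1 counted 520 templates in tumor 1, with 230 in tumor 2 and 129 in the TdLN, and it was the largest Trbv5 TCR in all 3 tissues. Outside mouse 1 it had 26 templates in tumor 2 of mouse 2 and 2 in tumor 1 of mouse 3. The Trbj2-3 TCR of mouse 2 counted 335 templates in tumor 1 against 125 in tumor 2 and just 13 in the TdLN, with 17 more in tumor 2 of mouse 1. It made up 7.97% of the productive templates in tumor 1 and 0.4% in the TdLN.

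The Trbj2-7 TCR of mouse 3 ran the other way, with 191 templates in the TdLN (4.85% of productive templates), 49 in tumor 1 (1.23%) and 0 in tumor 2. The Trbj1-4 TCR of mouse 5 counted 216 templates in tumor 1, against 22 in the TdLN and 5 in tumor 2. In mouse 4 the largest tumor 1 TCR had 33 templates and none in the TdLN or tumor 2 of that mouse, where a count of 0 allows up to 3 templates. It had 3 templates in tumor 1 of mouse 5. The largest Trbv5 TCR of tumor 1 was thus found in the TdLN of the same mouse in 4 of 5 mice.

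In tumor 2 the largest Trbv5 TCRs of mice 1 and 2 were the same as in tumor 1. That of mouse 3, with Trbj2-5 and 82 templates, was found in neither the TdLN nor tumor 1 of the mouse. It had 12 templates in tumor 2 of mouse 1 and 10 in that of mouse 2, so only the 3 tumor 2 libraries that shared TCRs with each other held it. That of mouse 5, with Trbj2-3, counted 46 templates in tumor 2, against 3 in the TdLN and 0 in tumor 1, with 10 more in the TdLN of mouse 4. In the TdLN of mice 2, 4 and 5 the largest Trbv5 TCRs, all with Trbj2-7, had 32, 39 and 26 templates, and 25, 0 and 2 in tumor 1. That of mouse 2 had 7 more in tumor 2 of mouse 1, and that of mouse 5 had 4 in the TdLN and 2 in tumor 1 of mouse 1.

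The next 3 lines show what those libraries shared. They give the Trbv5 rearrangements found in most mice, of which the first is the mouse 1 TCR printed above, with capitals again between V and J.
3 mice, Trbj2-7, 907 templates in all: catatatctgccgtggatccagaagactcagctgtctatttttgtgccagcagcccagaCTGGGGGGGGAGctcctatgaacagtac
3 mice, Trbj2-5, 104 templates in all: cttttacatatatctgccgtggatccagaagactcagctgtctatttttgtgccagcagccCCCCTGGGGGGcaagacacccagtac
3 mice, Trbj2-7, 83 templates in all: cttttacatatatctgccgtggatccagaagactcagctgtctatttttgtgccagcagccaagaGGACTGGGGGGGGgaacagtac

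All 3 were assigned Trbd2 and carried 3, 3 and 1 N bases. In mouse 1 the third counted 41 templates in the TdLN, then 29 and 9 in its 2 tumors. It also had 2 in tumor 2 of mouse 2 and 2 in the TdLN of mouse 4. Of 915 distinct productive Trbv5 rearrangements, 876 were found in 1 mouse, 34 in 2 mice and 5 in 3 mice, or 4.26% in more than 1 mouse against 1.95% for other V genes. That difference was given no test. Of the Trbv5 entries found in another mouse, 55 came from tumor 2 libraries, 27 from tumor 1 and 41 from TdLN libraries. Of the 808 found in a TdLN, 11 were in the TdLN of 2 or more mice.

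The average size of Trbv5 TCRs in tumor 1 was set against that of all other V genes pooled, and the direction varied between mice. Mean templates per TCR were 26.4, 22.4, 9.22, 4.7 and 17.3 for Trbv5 in mice 1 to 5, against 24.9, 13.6, 23.2, 15.1 and 10.1 for all other V genes. Trbv5 was higher in mice 1, 2 and 5 and lower in mice 3 and 4.

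On the log2 scale the difference was -0.29 ± 1.15 (SD within mice, n = 5), with an exact permutation p of 0.643, two-sided, and 0.814 after Benjamini-Hochberg adjustment over 19 V genes. In that comparison 42.1% of V genes passed an adjusted p of 0.05, all with smaller TCRs than the rest. The pooled mean of the other V genes includes their largest TCRs, and most V genes fell below it. A difference of 0 is thus not the typical value, and nothing is read from these calls or from the p of Trbv5. Trbv5 ranked 4 from the top by this difference. Without mouse 4 the Trbv5 difference was 0.06. TCRs with 1 template made up 32% to 45% of Trbv5 TCRs in tumor 1 and 47.8% to 67.2% in the TdLN.

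Trbv5 TCRs of tumor 1 were split by whether the same nucleotide rearrangement was found in the TdLN of the mouse. Of the tumor 1 Trbv5 TCRs, 14 of 25, 14 of 25, 12 of 18, 2 of 20 and 13 of 27 were found there in mice 1 to 5. As shares these are 56%, 56%, 66.7%, 10% and 48.1%. For other V genes they were 44.6%, 33.7%, 47.6%, 11.6% and 21.4%, lower than Trbv5 in every mouse but mouse 4.

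Seen the other way, Trbv5 made up 12.5%, 13.5%, 13.3%, 4.76% and 16.5% of the tumor 1 TCRs that were found in the TdLN. It made up 8.27%, 5.85%, 6.52%, 5.56% and 5.45% of those that were not. Mouse 4 alone had a lower share among the TCRs found in the TdLN, and its 2 Trbv5 TCRs of that kind leave the value imprecise.

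The means were 12.1% ± 4.37 and 6.33% ± 1.16 (SD, n = 5), 5.77 points apart with an SD of 4.4 within mice. These are parts of the same tumor 1 TCRs by which the gene was chosen, so the difference is a description and no p is given for it. Over the 20 V genes 0% passed the exact permutation test, 1 had an unadjusted p under 0.05 and edgeR's quasi-likelihood test called 1. Nothing about Trbv5 is read from these counts. The difference was 6.22 in mice 1 to 3 and 5.11 in mice 4 and 5, and 3.63 without rearrangements found in another mouse.

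Tumor 1 Trbv5 TCRs found in the TdLN held 97.9%, 93%, 88.6%, 9.57% and 76.4% of the Trbv5 templates of tumor 1 in mice 1 to 5. For other V genes the template shares were 94.5%, 88.8%, 89.8%, 33.4% and 52.5%. By templates, Trbv5 was thus higher in mice 1, 2 and 5 and lower in mice 3 and 4. The Trbv5 TCRs found in the TdLN averaged 46.1, 37.1, 12.3, 4.5 and 27.4 templates, and the other Trbv5 TCRs 1.27, 3.55, 3.17, 4.72 and 7.86. Larger TCRs are more likely to be drawn in both samples, and the part of TCR size in these shares was not tested. Over all mice, 25 Trbv5 TCRs were found in all 3 tissues of a mouse, 30 in the TdLN and tumor 1 alone, and 5 in both tumors alone. A further 55 were seen in tumor 1 only and 79 in tumor 2 only. By mouse, those in all 3 tissues numbered 8, 14, 0, 0 and 3, and those in tumor 2 only 27, 11, 17, 3 and 21. Counts with tumor 2 include the libraries of mice 1 to 3, which shared TCRs with other mice. Other V genes were not counted in this way.

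In tumor 2, 8 of 38, 14 of 26, 0 of 17, 0 of 4 and 5 of 26 Trbv5 TCRs were found in the TdLN of the same mouse. The interval reaches 18.4% for mouse 3 and 49% for mouse 4. The shares for other V genes were 22.9%, 23.8%, 1.7%, 21.7% and 4.74%. Without rearrangements found in another mouse, 3 of 14, 2 of 5, 0 of 9, 0 of 4 and 4 of 24 Trbv5 TCRs of tumor 2 were found there.

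Non-productive Trbv5 rearrangements were compared next. The choice of the gene did not use them directly. In tumor 1, however, 53 of 119 lay 1 lost base away from a productive rearrangement, as described below. The p-values that follow are therefore not fully independent of that choice. Non-productive Trbv5 rearrangements made up 6.39%, 6.2%, 7.3%, 5.54% and 6.36% of distinct non-productive rearrangements in the TdLN of mice 1 to 5. In tumor 1 the shares were 10.6%, 8.33%, 7.82%, 8.18% and 12.3%. The groups did not overlap.

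The mean was 9.44% ± 1.93 in tumor 1 and 6.36% ± 0.629 in the TdLN (SD, n = 5 each), a difference of 3.08 points. The exact permutation p was 0.00794, two-sided, the smallest that 5 against 5 samples allow. It was 0.0833 after adjustment over 21 V genes, of which 0% passed by this test or by edgeR, and 3 had an unadjusted p under 0.05. In tumor 2 the shares were 7.09%, 7.96%, 8.67%, 5.66% and 5.7%, which overlapped with the TdLN. That difference was 0.658 points, with an exact permutation p of 0.349 and 0.778 adjusted over 20 V genes, of which 0% passed and 4 had an unadjusted p under 0.05. EdgeR called 3 of them without TMM scaling and 0 with it, Trbv5 not among them. Without rearrangements found in another mouse the tumor 2 difference turned to -1.01.

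Most of the non-productive Trbv5 rearrangements of the tumors were 1 base away from a larger rearrangement of the same sample. These are called one-base neighbours here, and the base was lost, gained or changed. In tumor 1 they were 86 of 119 Trbv5 rearrangements, or 72.3%, of which 70 had lost a base, 16 had gained a base and 0 had a changed base. In tumor 2 they were 61 of 87, or 70.1%, and in the TdLN 148 of 547, or 27.1%.

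By mouse, the non-productive share of one-base neighbours in tumor 1 was 61.9%, 84.6%, 85.7%, 65.4% and 68.8% for Trbv5. For other V genes it was 51.1%, 47.9%, 50.9%, 52.1% and 45.6%. Every Trbv5 value lay above every value of the other V genes pooled. Single V genes came close, since over all mice Trbv16 reached 68.2%, Trbv13-1 67.2% and Trbv19 64.9% in tumor 1, and Trbv19 66.7% in tumor 2. In the TdLN the ranges of 18.8% to 34.9% for Trbv5 and 20.2% to 31% for other V genes overlapped. These differences were noticed in the data and were given no test.

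**Figure D3:**
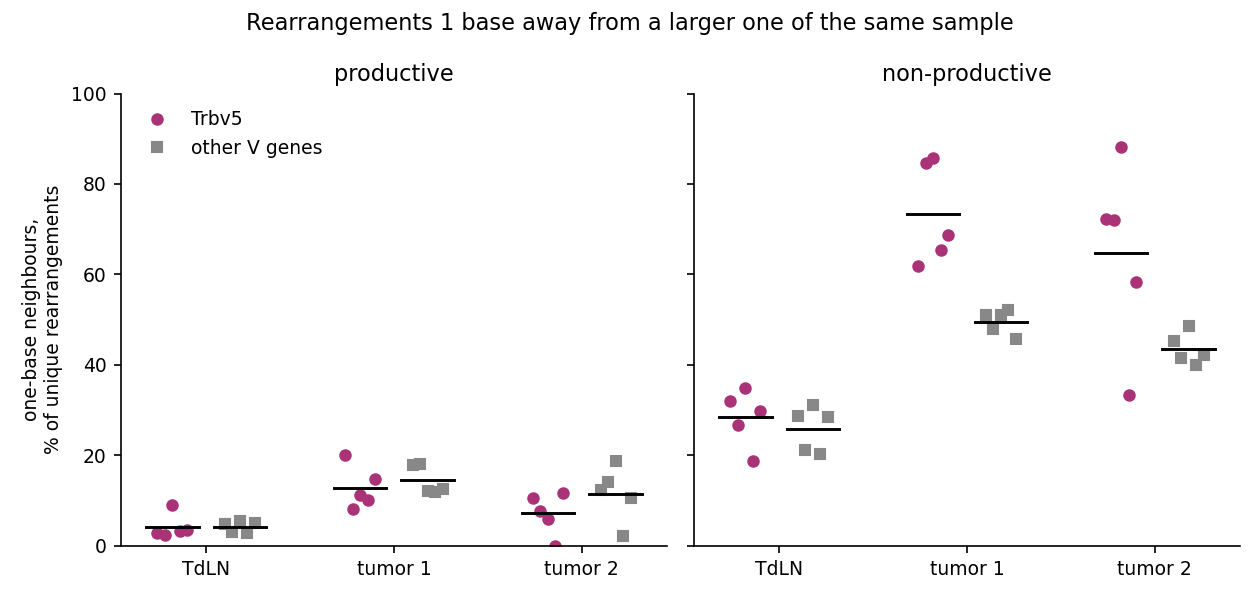
Share of one-base neighbours (%, y axis) among distinct productive (left) and non-productive (right) rearrangements by tissue, with 1 point per mouse for Trbv5 (circles) and for all other V genes pooled (squares) and bars for means. Among non-productive rearrangements of tumor 1 the Trbv5 points lie between 61.9% and 85.7% and the pooled others between 45.6% and 52.1%.

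Among productive Trbv5 TCRs the one-base neighbours were fewer, with 15 of 115 in tumor 1, 10 of 111 in tumor 2 and 30 of 820 in the TdLN. Of the 70 non-productive neighbours of tumor 1 that had lost a base, 53 lay next to a productive rearrangement and 56 had 1 template. In 22 the base was lost from the germline run of 5 T at the CDR3 start and in 29 from a run of 4 or more G. Set against tumor 1 of the other mice, 17 of 476 pairings of a non-productive Trbv5 rearrangement with a sample gave a one-base neighbour, or 3.57%.

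Without one-base neighbours, the non-productive Trbv5 shares of tumor 1 became 8.42%, 2.61%, 2.41%, 6.04% and 7.46%, against 6.11%, 5.79%, 6.92%, 5.64% and 6.25% in the TdLN. The difference turned to -0.752 points, with an exact permutation p of 0.516 and 0.873 adjusted. It then rested on 2 to 10 Trbv5 rearrangements in each tumor 1 sample. The productive difference stayed, at 3.37 points in tumor 1, with shares of 9.95%, 9.5%, 10%, 5.57% and 7.85%.

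The largest non-productive Trbv5 rearrangement gives an example. It had 1340 templates in tumor 1 of mouse 4, where Trbv5 made up 51.9% of non-productive templates against 0.521% to 14.6% in tumor 1 of the other mice. It had 13 templates in tumor 2 of mouse 4 and 38 in tumor 1 of mouse 5, and was found in no TdLN. It joined V to Trbj2-7 with 1 N base and no assigned D gene. In its sample it had 10 one-base neighbours with 13 templates together. It is printed here with 2 of them, from the same sample, with the T run at the CDR3 start in capitals.
1340 templates, out of frame: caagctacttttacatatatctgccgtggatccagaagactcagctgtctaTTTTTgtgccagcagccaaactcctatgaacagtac
2 templates, out of frame, 1 T fewer: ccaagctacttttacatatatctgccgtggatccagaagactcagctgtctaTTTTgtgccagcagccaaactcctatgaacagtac
1 template, in frame, 1 T more: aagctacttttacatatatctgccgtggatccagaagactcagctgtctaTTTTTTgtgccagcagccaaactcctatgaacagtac

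The table gives 2 V bases deleted and 1 N base for the first of these, but 17 V bases deleted and 12 N bases for the second and 16 and 13 for the third. The third is listed as productive. Among all non-productive Trbv5 rearrangements of tumor 1, 28 of 86 one-base neighbours had 10 or more V bases deleted, against 2 of the 33 others. Mean V deletion of the non-productive Trbv5 rearrangements was 5.54 ± 0.892 bases in tumor 1 and 3.06 ± 0.369 in the TdLN (SD, n = 5 each). For other V genes it was 5.76 ± 1.51 and 3.07 ± 0.258. The part of one-base neighbours in these means was not tested.

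Within the TdLN, Trbv5 was a smaller share of productive than of non-productive rearrangements, the values given above. The means were 5.21% ± 0.158 and 6.36% ± 0.629 (SD, n = 5), 1.15 points apart, with the productive share lower in 5 of 5 mice and no overlap. The productive TdLN share was part of the value the gene was chosen by, and that choice favours a low one, so the difference is a description and no p is given for it. In that comparison 55% of the 20 V genes passed an adjusted p of 0.05 by the exact permutation test, 6 higher and 5 lower, and nothing is read from the place of Trbv5 among them.

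Among rearrangements of 2 or more templates the difference was 0.374 points, with the productive share higher, and by templates it was 1.93. Without one-base neighbours it was -0.931. It was -1.43 in mice 1 to 3 and -0.724 in mice 4 and 5.

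Productive Trbv5 TCRs of the TdLN had longer CDR3s than those of other V genes. The mean lengths in mice 1 to 5 were 43.8, 43, 42.9, 43.2 and 43.3 nucleotides for Trbv5. They were 42.3, 42.1, 42, 41.7 and 41.8 for other V genes, and no Trbv5 value fell as low as any of these. Both distributions peaked at 42 nucleotides, and Trbv5 had fewer TCRs below and more above that length.

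The means were 43.2 ± 0.362 and 42 ± 0.238 nucleotides (SD, n = 5), 1.24 ± 0.366 apart within mice, or under 1 codon. The exact permutation p was 0.00794, two-sided, and 0.0198 adjusted over 20 V genes, of which 40% passed, 4 longer and 4 shorter. Trbv5 ranked 3 by this difference. The permutation did not pair the values of the same library. With the mouse as a block the adjusted exact sign-flip p was 0.0962. As 5 mice allow no exact sign-flip p under 0.0625, no call was possible there. Among TCRs of 2 or more templates the difference was 0.712 with an adjusted exact permutation p of 0.226. CDR3s of 48 nucleotides made up 14.6% ± 3.46 of Trbv5 TCRs and 10.3% ± 1.21 of the others, and those of 36 nucleotides 6.42% ± 2.22 and 10% ± 0.53 (SD, n = 5).

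**Figure D4:**
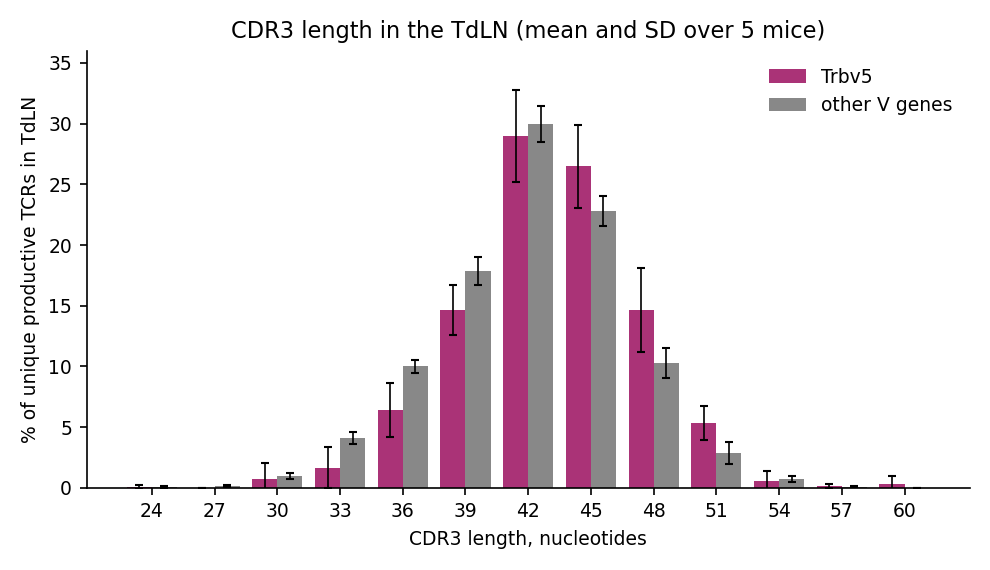
CDR3 length (nucleotides, x axis) of distinct productive TCRs in the TdLN as a share of TCRs (%, y axis), for Trbv5 and for all other V genes, with bars for means and lines for SD over 5 mice. Both peak at 42 nucleotides, at 29% and 30%, and Trbv5 has the larger share at 45 and 48 nucleotides.

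N bases were counted in the same TCRs. They averaged 3.36, 3.59, 4.19, 3.37 and 3.36 per Trbv5 TCR and 3.98, 3.77, 3.68, 3.33 and 3.21 per TCR of other V genes. The values crossed, with Trbv5 higher in 3 mice, and the mean difference was -0.0194 with an exact permutation p of 0.944. In that comparison 0% of the 20 V genes passed, and 1 had an unadjusted p under 0.05. Trbv5 lost 2.22 ± 0.512 V bases on average and the other V genes 2.68 ± 0.139 (SD, n = 5). That germline ends differ in length between V genes was not taken into account.

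Trimming of the Trbv5 end had 2 preferred places. No base was removed in 32.7% ± 7.92 of productive TdLN TCRs and 4 bases in 28.7% ± 6.57 (SD, n = 5). From 1 to 3 bases were lost in 14%, 8.09% and 8.78%. The last 4 bases of the germline end printed above are the ones lost in the second class. Non-productive rearrangements of the TdLN showed the same 2 places, at 31% and 25.2%.

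The J genes of Trbv5 TCRs in the TdLN were led by Trbj2-7, with 26.6% ± 4.4, then Trbj2-1 with 11.7% ± 5.92 and Trbj1-1 with 10.6% ± 2.62 (SD, n = 5). The Trbj2-7 shares of mice 1 to 5 were 33.3%, 22.1%, 28.4%, 25.1% and 24%. For other V genes they were 21.7%, 21.6%, 20.4%, 22.3% and 22%. Trbv5 was higher than the other V genes in each mouse, but the value of mouse 2 lay within the range of the others.

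The difference of 5.01 points had an exact permutation p of 0.0159, and 0.0952 after adjustment over 12 J genes. Of these J genes 0% passed and 3 had an unadjusted p under 0.05. The other 2 were Trbj1-2, at 3.64% against 5.85%, and Trbj1-3, at 2.38% against 4.57%, each with an adjusted exact permutation p of 0.0952. The genes of the Trbj2 cluster, which lies downstream of Trbd2, took 69.9% ± 1.35 of Trbv5 TCRs and 67.2% ± 1.54 of the others, and those of the Trbj1 cluster the remainder. None of the 6 tested Trbj1 or the 6 tested Trbj2 genes passed in either direction.

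In tumor 1 of mice 1 to 5, 68%, 28%, 27.8%, 60% and 22.2% of Trbv5 TCRs used Trbj2-7. These were 17 of 25, 7 of 25, 5 of 18, 12 of 20 and 6 of 27 TCRs. For other V genes there the Trbj2-7 shares were 23.6%, 27.3%, 18.9%, 27.2% and 23.6%. Trbv5 was thus lower in mouse 5 and close to the others in mouse 2. The Trbj2 cluster was used by 88%, 76%, 83.3%, 95% and 74.1% of Trbv5 TCRs. Other V genes there used the Trbj2 cluster in 62% to 69.9%. In tumor 2 Trbj2-7 was used in 44.7%, 30.8%, 11.8%, 0% and 19.2%, and without rearrangements found in another mouse by 9 of 14, 2 of 5, 1 of 9, 0 of 4 and 5 of 24 TCRs. With all rearrangements, the tumor 1 samples of mice 1 and 4 stood above all the rest. These are descriptions, since the gene was chosen by a comparison of the same TCRs.

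**Figure D5:**
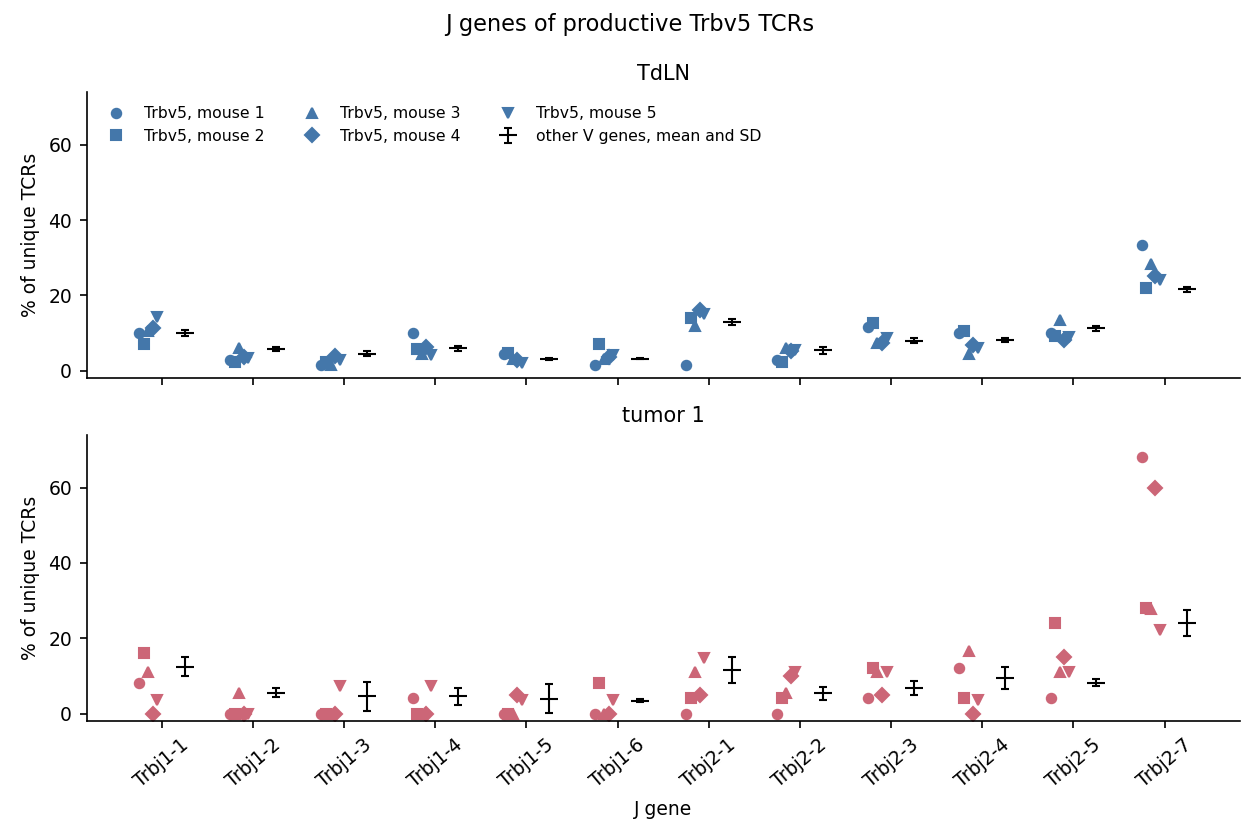
Share of each J gene (%, y axis) among distinct productive Trbv5 TCRs, with 1 colored symbol per mouse, in the TdLN (top) and tumor 1 (bottom), beside the mean and SD over 5 mice for all other V genes. Trbj2-7 leads in the TdLN at 22.1% to 33.3% and reaches 68% and 60% in tumor 1 of mice 1 and 4.

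Trbd2 was assigned in 45% ± 8.88 of Trbv5 TCRs of the TdLN and in 56.8% ± 7.89 of those in tumor 1 (SD, n = 5 each). For other V genes it was assigned in 38.4% ± 1.11 and 38.6% ± 3.47. No D gene was assigned in 12.9% ± 2.45 of Trbv5 TCRs of the TdLN and 18.1% ± 0.884 of the others. In tumor 1, CDR3s of Trbv5 averaged 43, 42.8, 42.2, 42.6 and 43.4 nucleotides in mice 1 to 5, against 42.9 to 43.8 in the TdLN.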

How the data were processed

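The deposited tables, made by the authors' immunoSEQ provider, hold 1 row per TCR β rearrangement with its template count, an 87-base sequence, V, D and J calls, the CDR3 length and a status (in frame, out of frame or stop). Counts were used as deposited. The deposited frequency column, headed % but a fraction that sums to 1, was not used. Aligner and version are not given in the sources used here, and the submitters' processing notes name mm10. Columns giving nucleotide numbers (CDR3 length, deletions, insertions) were used as deposited. Rows with status In were called productive, and 16 rows without a V gene were left out of shares.

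Members, lists and tests were chosen with earlier results of these data known. Samples were grouped by tissue label, and the number in each label was taken as the mouse. In tumor 1, 10% to 66.7% of Trbv5 TCRs were found in the TdLN of the same number, against at most 2 TCRs in a TdLN of another number. Shares were compared by exact permutation of 5 against 5 values for V genes of at least 1% mean share (Benjamini-Hochberg, threshold 0.05), with the mouse not a block unless stated. For CDR3 length, N bases, J genes and TCR size, both sides were values of the same 5 libraries. The same holds for productive against non-productive shares and for tumor 1 TCRs found or not found in the TdLN. The permutation took these values as independent and left their pairing out. P-values measure the spread between these values. Alternatives included edgeR 4.0.16 (R 4.3.3) on numbers of rearrangements, near copies (the last 40 bases shared with a rearrangement of 50 times the templates) and one-base neighbours, chosen after seeing the data. Named J genes were those with adjusted p under 0.05 and the 3 most used in the TdLN. The 2 others in the text had an unadjusted p under 0.05 and were named after their values were seen, as was the non-productive rearrangement with most templates. Named V genes were the 3 with the highest Spearman rho. Named TCRs were the largest per sample and the 3 found in most mice. The value of Trbv19 next to that of Trbv5, and the V genes named for one-base neighbours, were named after seeing their values. Tests were run in Python 3.11.15 with scipy 1.17.1 and tested on simulated data. Coordinates are GENCODE M21 on GRCm38, and the germline bases were read from the RefSeq genome of that build.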

Additional observations from a re-analysis of the deposited data

Results flagged for a closer look

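In 5 of 37 sets of Trbv5 values over the mice, 1 sample stood far from the rest by its gap to the nearest sample over the whole range. Chance alone would give about 1 in 20 for independent sets. These sets share samples, so no excess is read from the number. In tumor 1 of mouse 4 Trbv5 held 51.9% of non-productive templates, next to 14.6% in mouse 5. In tumor 2 of mouse 4, which rests on 4 productive and 3 non-productive Trbv5 rearrangements, N bases averaged 7.75 per productive TCR and non-productive CDR3s 38.7 nucleotides. In the TdLN of mouse 3, N bases averaged 4.19 per productive Trbv5 TCR and one-base neighbours made up 8.96% of productive Trbv5 TCRs, next to 3.48%.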

How the results depend on the processing

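Of 173 alternative values, 134 were counted as unchanged. For most results this meant the same direction and side of the threshold. For the productive differences of the tumors from the TdLN, it meant the same direction and a value within the SD within mice of the main one. For J genes it meant the same number called. Measured by templates, the productive difference from the TdLN was 1.19 points in tumor 1 and -2.01 in tumor 2. The template difference of tumor 1 ranged from -0.400 (without mouse 5) to 2.84 with 1 mouse left out. The non-productive difference of tumor 1 turned to -0.752 without one-base neighbours. That of tumor 2 turned to -2.09 without them, to -1.01 without rearrangements found in another mouse and to -0.272 in mice 4 and 5, and was 4.93 with at least 2 templates (exact permutation p 0.0238, adjusted 0.125). The tumor 1 one was 9.73 by templates. The lower productive share in the TdLN ran from -1.41 to -0.909 points with 1 mouse left out. It was -1.43 in mice 1 to 3, -0.724 in mice 4 and 5 and -1.17 by medians. It turned to 0.374 with at least 2 templates and to 1.93 by templates. By edgeR, the Trbv5 share of tumor 1 TCRs found in the TdLN differed from that of the others by log2 1.05, or 1.13 with TMM. Both differences use values the gene was chosen by, so no p is given for them here either. The size of tumor 1 TCRs turned to 0.197 by medians, 0.31 without rearrangements found in another mouse and 0.44 without the largest TCR of every sample, and ran from -0.55 to 0.058 with 1 mouse left out. The CDR3 difference kept its direction and lost its call with any mouse left out (1.16 to 1.35, adjusted exact permutation p 0.0571 to 0.0714). The smallest possible p is larger there than with all 5 mice. The call was also lost by medians (1.13), with at least 2 templates (0.712) and weighted by templates (0.988). The difference was 1.06 in mice 1 to 3 and 1.51 in mice 4 and 5. Sets of 3 and 2 mice allow no exact permutation p under 0.1 and 0.333, so no call was possible in them. The N base difference turned to 0.0903 in mice 4 and 5 and 0.0512 without rearrangements found in another mouse, and ran from -0.153 to 0.131 with 1 mouse left out. With the mouse as a block, the pairing left the differences of -1.15 points and 1.24 nucleotides without a call and changed no other call. The cause of the other changes was not tested. Tumor 2 of mouse 4, with 238 productive templates, limits every tumor 2 value.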
